A study of Danio rerio with 12 samples.

Results

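Genes whose transcripts stood highest 2 days after amputation (2 dpa) in the regrowing caudal fin of the zebrafish, and only then, were followed through 4 stages. They were chosen by their measured level. In CPM, counts scaled to the total of their library, the 4 stage means of a gene, each plus 1, were sorted, and the widest gap between neighbours had to leave 2 dpa alone on the high side. All 3 libraries of 2 dpa had to exceed the other 9, the 2 dpa mean had to reach 5 CPM, and 7 named genes were set aside beforehand. Of 33737 gene identifiers in the table, 2627 had 2 dpa alone above the widest gap, 414 of these had no overlap with the other libraries, and 301 also met the level minimum and were not set aside. The 150 with the largest ratio between the 2 dpa mean and the next highest stage mean are the members.

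A cut caudal fin closes its stump with migrating epidermis, and this wound epidermis then signals to a mass of dividing cells beneath it, the blastema, from which the bony rays and connective tissue regrow. Early regrowth is known for exchange of growth factors between epidermis and blastema, for matrix remodelling at the boundary between both tissues, and for high output of new protein. Secreted proteins pass through the endoplasmic reticulum and the Golgi apparatus, and ribosomes are assembled in the nucleolus before they can be used.

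The study sampled AB-Tu adults, aged 8 to 18 months, at 0 dpa (the uncut fin) and at 2, 3 and 10 dpa after the cut. For every stage, polyadenylated RNA of 3 pools, with 6 fish in a pool, gave 3 libraries. No mutant, transgene or drug was used in any group, so stage after amputation is the only difference the labels give. The labels do not say whether fish were sampled at more than 1 stage, and p-values measure the spread between these pools only. A bulk library cannot tell fewer cells of a type from less RNA per cell, which holds for every level below.

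Total counts ran from 8833337 to 22843743 per library, and 16612 genes, all 150 members among them, passed the expression filter. The biological coefficient of variation was 26.9%. One library stood apart. On the second principal component, with 16.3% of the variance, 2 dpa replicate 2 lay at -4.84, between the other 2 dpa libraries (46.8 and 72.5) and the 3 dpa libraries (-34.0 to -26.9). On the first, with 55.9%, it lay at 87, nearer to the other 2 dpa libraries (76.1 and 75) than to 3 dpa (49.9 to 71.6). Values are therefore given by library, in the order of replicates 1, 2 and 3, and counts are given without that library where it moves them. Counts are not scaled to transcript length, so levels are compared between stages of 1 gene and not between genes.

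The excess at 2 dpa that follows is what the members were chosen for and is given as a description, with no test. The ratio of the 2 dpa mean to the next highest stage mean, each plus 1 CPM, was 5.43 for the first member and 1.44 for the last, with a median of 1.64. It reached 2 for 36 members and lay under 1.6 for 67. The 2 dpa means ran from 5.05 to 899 CPM, with a median of 41.6, and 40 members exceeded 100 CPM. The next highest stage was 3 dpa for 115 members, 0 dpa for 21 and 10 dpa for 14. Together the members took 1.28 to 1.56% of all counts at 2 dpa, against 0.633 to 0.685% at 0 dpa, 0.722 to 0.924% at 3 dpa and 0.583 to 0.635% at 10 dpa.

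**Figure D1:**
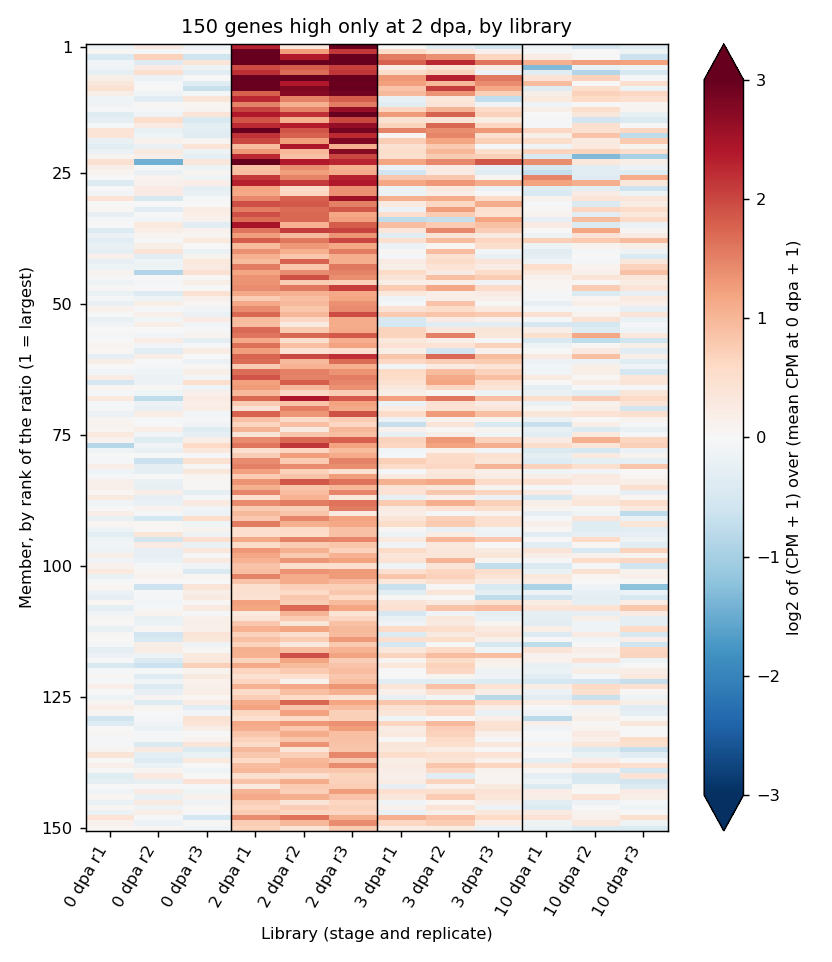
Each row is 1 of the 150 members, sorted by ratio, and each column is 1 library. Colour gives log2 of (CPM + 1) over the gene's (mean CPM at 0 dpa + 1), and the 3 columns of 2 dpa are the highest in every row because the rule required it. In the 3 dpa block the column of replicate 2 is often the darkest, and it is the highest library outside 2 dpa for 81 members.

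The distance between 2 dpa and the rest was small for many members. The lowest 2 dpa library over the highest other library had a median of 1.14, lay under 1.1 for 53 members and reached 2 for 5. Among the last to enter, CBY1 had a ratio of 1.448, PUS10 1.444 and HUWE1 1.443, and just outside were GPSM2 at 1.441, MYO19 at 1.439 and PLXNB1 at 1.437. Near the level minimum, DUSP13B averaged 5.053 CPM at 2 dpa and fkbp15a 5.07, while tuft1b, svilb and ENO1 fell short at 4.944, 4.819 and 4.672 CPM. Of the 150 members, 130 have a symbol. For 85 the symbol is written in capitals after the human gene and does not say which zebrafish paralog is meant. Whether strand was used in counting is not given in the sources used here, so counts of overlapping or antisense genes are uncertain.

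Roles were assigned to members only, after their values were seen, and were not counted over all tested genes. The size of a role group therefore does not show that the role is frequent among the members. Signalling had 25 members at ratios of 1.45 to 4.27, and it held ligands, receptors and their intracellular regulators. The secreted growth factor bmp7a (ENSDARG00000018260), a ligand of the bone morphogenetic protein family, had 1.19, 0.6799 and 0.3396 CPM at 0 dpa, 12.6, 8.13 and 12.4 CPM at 2 dpa, 3.098, 2.45 and 3.61 CPM at 3 dpa, and 2.29, 0.745 and 1.45 CPM at 10 dpa. The 3 libraries at 2 dpa stood clear of all others, and its lowest 2 dpa value was 2.26 times the highest value elsewhere. The insulin-like growth factor binding protein igfbp6b (ENSDARG00000090833), of a family that holds these growth factors outside cells, had 4.47, 11.2 and 3.96 CPM at 0 dpa, 70.7, 38.02 and 110.4 CPM at 2 dpa, 20.8, 18.4 and 10.9 CPM at 3 dpa, and 7.796, 6.58 and 3.84 CPM at 10 dpa. Its 2 dpa libraries differed among themselves, with replicate 2 the lowest, yet none overlapped with another stage. The ligand gene WNT7A (ENSDARG00000044827) had 6.03, 6.03 and 8.49 CPM at 0 dpa, 21.8, 12.9 and 22.5 CPM at 2 dpa, 7.8, 9.499 and 8.09 CPM at 3 dpa, and 10.3, 7.39 and 11.7 CPM at 10 dpa. Its lowest 2 dpa library was close to the highest 10 dpa library.

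Receptors formed the next set. The receptor lifrb (ENSDARG00000039863), which pairs with gp130 to receive cytokines of the leukaemia inhibitory factor group, had 26.9, 47.4 and 23.2 CPM at 0 dpa, 122, 68.7 and 134 CPM at 2 dpa, 45.1, 43.6 and 38.4 CPM at 3 dpa, and 31.9, 21.6 and 24.4 CPM at 10 dpa. Replicates 1 and 3 at 2 dpa were high, and replicate 2 lay nearer to 0 dpa replicate 2 than to them. EPHA4 (ENSDARG00000054454), a receptor tyrosine kinase that binds ephrins on neighbouring cells, had 21.96, 13.7 and 12.8 CPM at 0 dpa, 146, 61.9 and 124 CPM at 2 dpa, 47.4, 44.4 and 41.4 CPM at 3 dpa, and 25.2, 22.5 and 25.7 CPM at 10 dpa. The ephrin gene EFNA1 (ENSDARG00000018787), whose product is a ligand of such receptors in mammals, was also a member and had 24.8, 24.1 and 30.1 CPM at 0 dpa, 86.6, 77.1 and 68.97 CPM at 2 dpa, 40.6, 51.9 and 43.1 CPM at 3 dpa, and 24.5, 29.8 and 18.4 CPM at 10 dpa. Both were highest at 2 dpa and intermediate at 3 dpa, and EFNA1 differed little among its 2 dpa libraries. The type II receptor for transforming growth factor beta, TGFBR2 (ENSDARG00000059363), had 7.37, 11.8 and 11.2 CPM at 0 dpa, 32.7, 46.5 and 44.6 CPM at 2 dpa, 13.2, 29.2 and 17.7 CPM at 3 dpa, and 10.1, 24.3 and 10.7 CPM at 10 dpa. Replicate 2 was the highest library of this gene at every stage. The prostacyclin receptor PTGIR averaged 1.22 ± 0.674, 7.87 ± 3.54, 3.24 ± 0.836 and 1.74 ± 0.271 CPM at 0, 2, 3 and 10 dpa (SD, n = 3 each).

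Genes that set how such signals are read were also members. LFNG, a glycosyltransferase that modifies Notch receptors, averaged 29.8 ± 4.55, 94.8 ± 24.8, 45.03 ± 5.32 and 30.9 ± 6.92 CPM at 0, 2, 3 and 10 dpa. The Smad repressor skib had means of 127, 306, 175 and 119.6 CPM at 0, 2, 3 and 10 dpa, and its relative SKIL had means of 39.9, 113, 65.6 and 33.8 CPM at 0, 2, 3 and 10 dpa. RHBDF1, whose product helps the sheddase ADAM17 mature in mammals, averaged 18.6 ± 2.15, 37.5 ± 9.95, 20.02 ± 2.49 and 20.1 ± 1.63 CPM at 0, 2, 3 and 10 dpa. The kinase RPS6KA3, which acts downstream of ERK, averaged 24.5 ± 6.63, 63.5 ± 10.21, 31.8 ± 13.7 and 21.6 ± 2.35 CPM at 0, 2, 3 and 10 dpa. DUSP13B, named for a dual-specificity phosphatase, had the second largest ratio (4.27) but a low level, with 9.66, 1.66 and 3.84 CPM at 2 dpa and at most 0.641 CPM in any other library. Of the 25 signalling members, 15 were lowest at 2 dpa in replicate 2 and 5 were highest there. Over all tested genes, 27.2% were lowest and 50.8% highest in that library. The secreted guidance ligand SLIT1, the epidermal growth factor-like transmembrane gene TMEFF2 and the tyrosine kinase adaptor dok1a were members as well, at ratios of 1.97, 2.39 and 1.75.

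**Figure D2:**
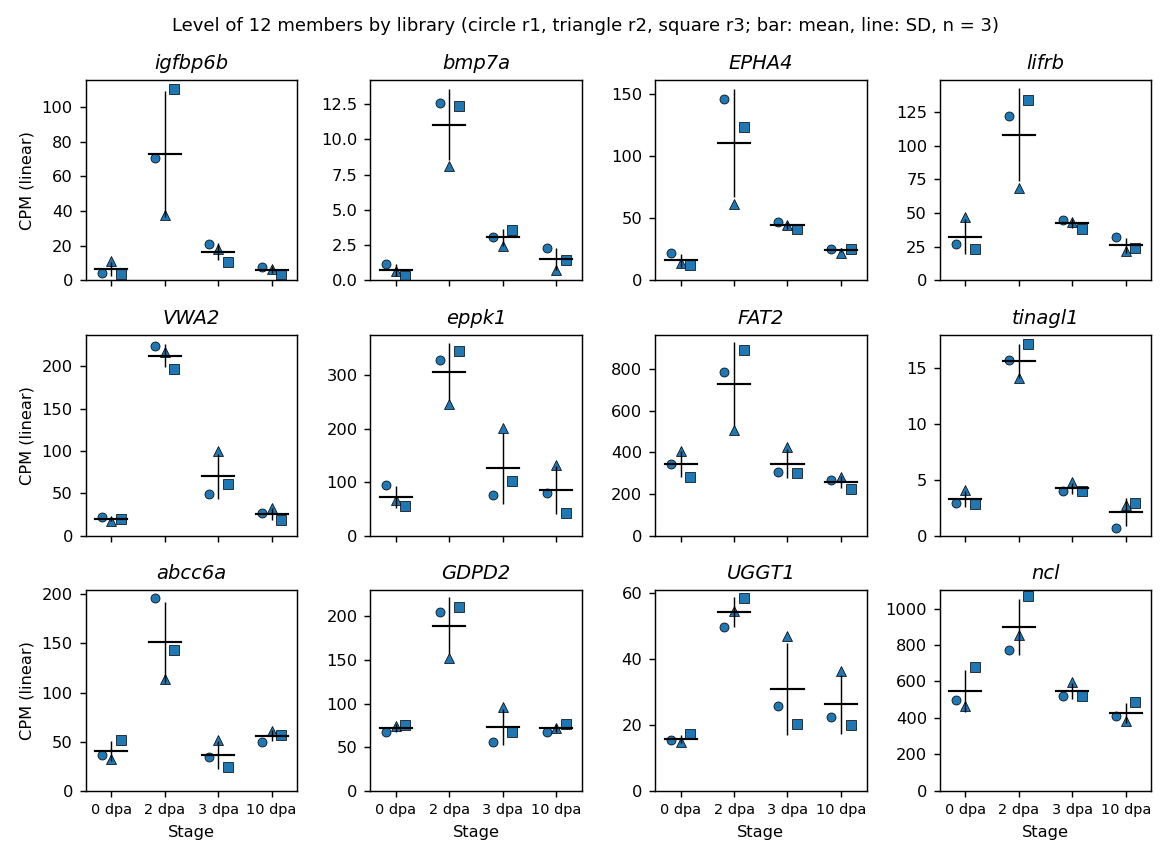
Levels of 12 members in CPM (linear axes that start at 0) by stage, with 1 symbol per library, the stage mean as a bar and its SD as a line (n = 3). In each panel the 3 symbols of 2 dpa lie above all others. The triangle of 2 dpa replicate 2 is the lowest of the 3 for igfbp6b, bmp7a, EPHA4, lifrb, eppk1, FAT2, tinagl1, abcc6a and GDPD2.

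Matrix, adhesion and epithelial genes made up 10 members and included the largest ratio. That was adamtsl7 (ENSDARG00000055439), named for a family of secreted matrix glycoproteins related to ADAMTS proteases, with 1.64, 2.46 and 1.698 CPM at 0 dpa, 13.5, 2.71 and 28.6 CPM at 2 dpa, 1.92, 1.31 and 1.03 CPM at 3 dpa, and 1.65, 1.06 and 1.35 CPM at 10 dpa. Its ratio rested on 2 dpa replicates 1 and 3, since replicate 2 was barely above 0 dpa replicate 2. It and DUSP13B were the only members whose highest 2 dpa library was over 4 times the lowest. VWA2 (ENSDARG00000075441), a von Willebrand factor A domain protein found at basement membranes, had 22.2, 16.998 and 19.2 CPM at 0 dpa, 224, 217 and 197 CPM at 2 dpa, 49.3, 99.98 and 60.4 CPM at 3 dpa, and 26.1, 32.3 and 18.8 CPM at 10 dpa. Its 2 dpa libraries were close together, and 3 dpa stood between them and the uncut fin. The basement membrane protein gene tinagl1 (ENSDARG00000061231) had 2.903, 4.08 and 2.83 CPM at 0 dpa, 15.7, 14.1 and 17.1 CPM at 2 dpa, 3.95, 4.82 and 3.97 CPM at 3 dpa, and 0.715, 2.73 and 2.91 CPM at 10 dpa. The gap between its lowest 2 dpa library and the highest other library, 2.92 times, was the widest among the members.

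The other epithelial members were expressed at every stage. The plakin gene eppk1 (ENSDARG00000096359), whose mammalian product epiplakin binds keratin filaments, had 94.5, 66.3 and 56.04 CPM at 0 dpa, 329, 247 and 345 CPM at 2 dpa, 75.9, 202 and 101 CPM at 3 dpa, and 80.03, 132 and 42.1 CPM at 10 dpa. FAT2 (ENSDARG00000018923), a giant cadherin whose fly relative guides the collective migration of an epithelium, had 345, 404 and 279 CPM at 0 dpa, 786, 505 and 893 CPM at 2 dpa, 306, 425 and 302 CPM at 3 dpa, and 267, 282 and 223 CPM at 10 dpa. The lowest 2 dpa library, replicate 2 in both, was 1.23 times the highest library of another stage for eppk1 and 1.19 times for FAT2. FAM83G, which acts in bone morphogenetic protein and Wnt signalling in mammals, had the narrowest gap of the members, with 324, 227 and 389.5 CPM at 2 dpa and 202, 194 and 227 CPM at 0 dpa. Of the 10 members in this group, 7 were lowest at 2 dpa in replicate 2, and ratios ran from 1.5 to 5.43. The adhesion gene nectin4a and the scaffold gene PEAK1, which localises to cell protrusions in mammals, had means of 50.6, 84.7, 44.8 and 46.4 CPM at 0, 2, 3 and 10 dpa and of 88.6, 178, 118 and 79.2 CPM at 0, 2, 3 and 10 dpa.

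Another group, with 24 members, serves the endoplasmic reticulum, the Golgi apparatus and vesicle traffic. Ratios in it were modest, from 1.45 to 2.14, and 11 members were lowest at 2 dpa in replicate 2. Of the 24, 2 were called higher at 2 dpa than at 3 dpa, against 9 of the 25 signalling members. The same call was made for 36 of all 150 members and 0.494% of all tested genes. The rule used this contrast, so nothing is read from these counts. The median ratio, on which members were ranked, was 1.52 in this group and 1.82 among the signalling members. Folding and translocation genes were UGGT1 (ENSDARG00000054746), which tags misfolded glycoproteins for another folding cycle, the translocon subunit gene SSR3, the chaperone gene CLGN and the stress sensor gene atf6. UGGT1 had 15.3, 14.7 and 17.1 CPM at 0 dpa, 49.7, 54.4 and 58.5 CPM at 2 dpa, 25.7, 46.8 and 20.2 CPM at 3 dpa, and 22.3, 36.3 and 19.9 CPM at 10 dpa. At 3 dpa, replicate 2 reached nearly the 2 dpa level while replicates 1 and 3 did not. atf6 had means of 52.8, 109, 73.4 and 46.7 CPM at 0, 2, 3 and 10 dpa, and SSR3 of 0.7201, 5.93, 1.62 and 2.24 CPM at 0, 2, 3 and 10 dpa. Among 36 tested genes of the unfolded protein and other stress responses, atf6 was the one member.

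The transport members, grouped by symbol, include genes of traffic to the Golgi, to the plasma membrane and at endosomes. RAB1B (ENSDARG00000029663), a small GTPase of traffic from the endoplasmic reticulum to the Golgi, had 92.5, 93.9 and 128 CPM at 0 dpa, 217, 399.8 and 242 CPM at 2 dpa, 167, 201 and 198 CPM at 3 dpa, and 114, 112 and 166 CPM at 10 dpa. Replicate 2 was by far its highest 2 dpa library. Its paralog rab1bb, also a member, averaged 8.58 ± 1.201, 18.7 ± 2.02, 12.5 ± 2.27 and 10.4 ± 1.08 CPM at 0, 2, 3 and 10 dpa, and RAB8A, a GTPase of traffic to the plasma membrane, averaged 20.9 ± 2.58, 47.5 ± 9.06, 31.97 ± 6.71 and 29.3 ± 2.69 CPM at 0, 2, 3 and 10 dpa. The SNARE genes STX16 and SNAP29 had means of 16.7, 33.6, 17.8 and 18.1 CPM at 0, 2, 3 and 10 dpa and of 6.16, 13.04, 7.25 and 6.19 CPM at 0, 2, 3 and 10 dpa. The calcium pump genes ATP2A3 and ATP2C1, of the endoplasmic reticulum and the Golgi, had means of 174, 264, 140.1 and 129 CPM at 0, 2, 3 and 10 dpa and of 34.2, 55.7, 38.01 and 30.2 CPM at 0, 2, 3 and 10 dpa. The 3 and 10 dpa means of ATP2A3 lay under that of the uncut fin. Lipid and membrane regulators of this group include PI4KA, a lipid kinase of the plasma membrane, VAC14, a scaffold in endosomal lipid synthesis, and the endosomal sorting gene SNX4, with ratios of 1.501, 1.53 and 1.53. The vesicle coat adaptor gene ston2 had means of 61.4, 199, 119 and 82.7 CPM at 0, 2, 3 and 10 dpa, and the kinesin motor gene KIF13B of 17.4, 56.5, 34.1 and 28.7 CPM at 0, 2, 3 and 10 dpa.

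Nucleolar and RNA genes were 9 members, and of these 2 were lowest and 4 highest at 2 dpa in replicate 2. Of the 9, 0 were called higher at 2 dpa than at 3 dpa, against 36 of all 150. The rule used this contrast and the count of 36 moved with single libraries, so nothing is read from the 0. The members kept under all other settings of the rule were 0 of these 9, against 33 of all 150. Nucleolin, ncl (ENSDARG00000002710), an abundant nucleolar protein, had 499.6, 468 and 681 CPM at 0 dpa, 773, 855 and 1068 CPM at 2 dpa, 521, 596 and 523 CPM at 3 dpa, and 409, 383 and 486 CPM at 10 dpa. Its 2 dpa libraries lay above all others, and the 0 and 3 dpa libraries overlapped. IMP4 (ENSDARG00000054540), a subunit of the complex that processes the small subunit's ribosomal RNA, had 3.42, 3.82 and 6.45 CPM at 0 dpa, 9.71, 28.9 and 10.9 CPM at 2 dpa, 6.62, 8.54 and 4.34 CPM at 3 dpa, and 4.15, 5.84 and 4.88 CPM at 10 dpa. It was led by replicate 2, with replicates 1 and 3 only a little above the highest 3 dpa library. BOP1 and tsr1, which act in assembly of the large and the small ribosomal subunit, averaged 23.7 ± 6.94, 58.8 ± 4.35, 39.08 ± 7.62 and 26.96 ± 2.87 CPM at 0, 2, 3 and 10 dpa and 21.8 ± 2.74, 69.7 ± 12.4, 43.4 ± 9.303 and 26.9 ± 2.84 CPM at 0, 2, 3 and 10 dpa. RRP9, of the same processing complex as IMP4, LRPPRC, which stabilises mitochondrial messenger RNA in mammals, and the RNA helicase gene MOV10 had means of 2.51, 6.99, 4.07 and 2.68 CPM at 0, 2, 3 and 10 dpa, of 25.6, 75.5, 44.1 and 29.9 CPM at 0, 2, 3 and 10 dpa and of 38.3, 95.7, 61.2 and 43.6 CPM at 0, 2, 3 and 10 dpa. Over the 9 members, replicate 2 differed from the mean of replicates 1 and 3 at 2 dpa by a median of 0.03 on the log2 scale, against -0.38 for the signalling members and -0.34 for the matrix and epithelial members. Over all tested genes this median was 0.15, above all 3 of these groups.

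The smoothelin gene smtnb, named for an actin-binding protein of smooth muscle, had 1.64, 2.21 and 3.06 CPM at 0 dpa, 10.6, 8.96 and 12.3 CPM at 2 dpa, 3.63, 5.38 and 4.12 CPM at 3 dpa, and 4.43, 4.72 and 5.396 CPM at 10 dpa. Its 2 dpa libraries were close together, and the uncut fin was the lowest stage. The Rap exchange factor gene rapgef5a and the myosin gene myo9ab had ratios of 2.14 and 1.82.

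Metabolic enzymes and transporters were 18 members. The ATP-binding cassette transporter gene abcc6a (ENSDARG00000016750), whose human counterpart protects tissues from ectopic calcification, had 36.8, 32.04 and 51.96 CPM at 0 dpa, 196, 114 and 144 CPM at 2 dpa, 34.1, 51.5 and 23.9 CPM at 3 dpa, and 49.9, 60.99 and 56.97 CPM at 10 dpa. The phosphodiesterase gene GDPD2 (ENSDARG00000073870) had 66.98, 74.2 and 75.2 CPM at 0 dpa, 205, 152 and 211 CPM at 2 dpa, 55.7, 95.8 and 67.03 CPM at 3 dpa, and 67.4, 72.2 and 76.4 CPM at 10 dpa. In both, the 0, 3 and 10 dpa libraries overlapped with each other and lay below all 2 dpa libraries. The creatine transporter gene SLC6A8 (ENSDARG00000043646) had 2.68, 3.4 and 5.21 CPM at 0 dpa, 24.1, 20.9 and 42.1 CPM at 2 dpa, 10.5, 15.3 and 6.695 CPM at 3 dpa, and 3.79, 5.03 and 3.11 CPM at 10 dpa, with 3 dpa between 2 dpa and the uncut fin. Others were GPT2, an alanine aminotransferase, WNK1, a kinase that controls ion cotransporters, CAD, which starts pyrimidine synthesis, SPTLC2, which starts sphingolipid synthesis, and the fatty acid genes FASN and ELOVL5. Their ratios were 1.85, 1.72, 1.496, 1.57, 1.55 and 1.58.

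Transcription and chromatin genes were 8 members. The homeobox gene emx3 (ENSDARG00000020417) had 36.8, 45.3 and 29.2 CPM at 0 dpa, 209, 77.1 and 132 CPM at 2 dpa, 71.2, 63.5 and 68.6 CPM at 3 dpa, and 44.3, 27.02 and 32.8 CPM at 10 dpa, with 2 dpa replicate 1 far above replicate 2. The forkhead gene foxi2 had 2.83, 3.06 and 1.92 CPM at 0 dpa, 16.3, 5.65 and 13.3 CPM at 2 dpa, 4.06, 5.12 and 4.93 CPM at 3 dpa, and 1.65, 0.435 and 0.8301 CPM at 10 dpa, and its 10 dpa libraries were the lowest of all. GADD45G (ENSDARG00000019417), of a family induced by stress and growth arrest in mammals, had 1.27, 2.29 and 2.49 CPM at 0 dpa, 14.2, 11.8 and 14.99 CPM at 2 dpa, 5.77, 6.39 and 5.52 CPM at 3 dpa, and 6.01, 5.47 and 2.802 CPM at 10 dpa. The Polycomb gene phc2a averaged 38.9 ± 4.74, 121 ± 38.3, 68.4 ± 1.05 and 48.8 ± 6.2 CPM at 0, 2, 3 and 10 dpa. Smaller groups were protein turnover, with 5 members that include the ubiquitin ligase genes HUWE1 and HERC1 and the chaperone cofactor gene BAG5, and DNA replication and damage response, with ORC6 and ATR. A further 19 had a symbol but no role assigned, such as MVP, which codes for the major vault protein, and BSN, known as a scaffold of nerve terminals. The complement gene cfbl, at a ratio of 1.52, was the one member of that system. The 20 members without a symbol had ratios from 1.48 to 3.57, and the highest of them, ENSDARG00000076233, had 2.903, 2.12 and 4.302 CPM at 0 dpa, 39.4, 57.4 and 64.6 CPM at 2 dpa, 12.9, 18.6 and 11.6 CPM at 3 dpa, and 7.65, 8.88 and 8.51 CPM at 10 dpa. It was lowest at 0 dpa and stood at least 2.12 times above every other library in each 2 dpa library.

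Whether the stages other than 2 dpa differed among themselves was tested. The rule caps those differences, because the widest gap must lie under 2 dpa. It also used the values of these stages, since each of their libraries had to lie under all 2 dpa libraries. The ranking used them as well, since the highest of their stage means divided the 2 dpa mean. Genes outside the members were not held to this, so the shares of members and of all tested genes are not on equal terms. How far this sets the counts in each direction, the counts of 0 among them, was not tested. Genes were called with edgeR's quasi-likelihood test at a Benjamini-Hochberg adjusted p under 0.05 over all 16612 genes. At 3 dpa against 0 dpa, 40 members rose (26.7%), beside 22.8% of all tested genes, and 0 fell, beside 21.3%. The count of falls was also 0 at an unadjusted p under 0.05 and with DESeq2, and became 1 without 2 dpa replicate 2 or 3 dpa replicate 3. The median log2 change was 0.37 for the members and 0.05 for all tested genes, with 120 members above 0. The count of 40 became 24 without 3 dpa replicate 2, 21 without 0 dpa replicate 2 and 19 without all 4 libraries of replicate number 2.

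Among members with an assigned role, bmp7a and VWA2 had the largest rises at 3 dpa. VWA2 rose to 69.9 ± 26.7 CPM at 3 dpa, against 19.5 ± 2.598 CPM at 0 dpa (log2 change 1.76 ± 0.25 (SE), adjusted p = 0.000101, edgeR). For bmp7a the means were 3.05 ± 0.578 CPM at 3 dpa and 0.737 ± 0.428 CPM at 0 dpa (log2 change 1.90 ± 0.50 (SE), adjusted p = 0.00704, edgeR). EPHA4 rose to 44.4 ± 3.01 CPM, against 16.1 ± 5.05 CPM in the uncut fin (log2 change 1.39 ± 0.33 (SE), adjusted p = 0.00373, edgeR). The transporter gene SLC6A8 rose to 10.8 ± 4.32 CPM, against 3.76 ± 1.303 CPM (log2 change 1.48 ± 0.36 (SE), adjusted p = 0.00474, edgeR), and GADD45G to 5.89 ± 0.449 CPM, against 2.02 ± 0.658 CPM (log2 change 1.51 ± 0.32 (SE), adjusted p = 0.00207, edgeR). These 5 calls held under all 18 other settings. Values of the uncut fin and of 3 dpa did not overlap for any of the 5. The identifier ENSDARG00000076233, which has no symbol, had the largest rise of all members (log2 change 2.16 ± 0.27 (SE), adjusted p = 4.47e-05, edgeR), with 12.9, 18.6 and 11.6 CPM at 3 dpa and 2.903, 2.12 and 4.302 CPM at 0 dpa.

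Other roles were also represented among the 40. Of the 9 nucleolar and RNA members 4 rose, tsr1 among them (log2 change 0.93 ± 0.21 (SE), adjusted p = 0.00258, edgeR). The Hsp70 cofactor gene BAG5 rose as well (log2 change 1.30 ± 0.27 (SE), adjusted p = 0.00163, edgeR). Of the 25 signalling members 8 rose, and of the 24 endoplasmic reticulum, Golgi and vesicle members 6 rose. Of the 18 metabolic and transport members 1 rose, the creatine transporter gene SLC6A8. The share of all tested genes that rose was 22.8%, and no role's count was tested against it. The call of igfbp6b at 3 dpa (log2 change 1.29 ± 0.46 (SE), adjusted p = 0.0342, edgeR) was lost under 6 of 18 other settings, and that of ORC6 (log2 change 1.47 ± 0.50 (SE), adjusted p = 0.0279, edgeR) under 5.

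Few members were called between 10 dpa and the uncut fin, a difference that the rule itself caps. At 10 dpa against 0 dpa, 3 members rose, beside 6.62% of all tested genes, and 0 fell, beside 2.78%. The 0 compares with 9 at an unadjusted p under 0.05 and with 4 by DESeq2, and it became 3 without 2 dpa replicate 2 and 1 without 2 dpa replicate 3, 10 dpa replicate 1 or 10 dpa replicate 2. The median log2 change was -0.03 for the members and 0.04 for all tested genes. The 3 were GADD45G, with 4.76 ± 1.72 CPM at 10 dpa against 2.02 ± 0.658 CPM at 0 dpa (log2 change 1.19 ± 0.33 (SE), adjusted p = 0.0371, edgeR), smtnb, with 4.85 ± 0.494 CPM against 2.301 ± 0.714 CPM (log2 change 1.00 ± 0.28 (SE), adjusted p = 0.0392, edgeR), and ENSDARG00000076233 (log2 change 1.35 ± 0.27 (SE), adjusted p = 0.00939, edgeR). The call of smtnb was lost under 10 of 18 other settings, leaving out any 10 dpa library among them, that of GADD45G under 7 and that of ENSDARG00000076233 under 2. The count was 0 without 0 dpa replicate 2 and 1 without 0 dpa replicate 1, 3 dpa replicate 3 or 10 dpa replicate 1.

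Between 3 and 10 dpa the tested changes of members ran downward. The rule caps this difference too, and 3 dpa was the next highest stage for 115 members. Its part in the direction was not tested. At 10 dpa against 3 dpa, 19 members fell (12.7%), beside 8.25% of all tested genes, and 0 rose, beside 11.3%. The count of rises was also 0 at an unadjusted p under 0.05 and with DESeq2, and became 1 without 3 dpa replicate 3. The median log2 change was -0.38 for the members and -0.02 for all tested genes, and 137 members lay below 0. The forkhead gene foxi2 fell to 0.97 ± 0.617 CPM at 10 dpa, against 4.704 ± 0.566 CPM at 3 dpa (log2 change -2.29 ± 0.50 (SE), adjusted p = 0.00633, edgeR). VWA2 fell to 25.7 ± 6.76 CPM, against 69.9 ± 26.7 CPM (log2 change -1.46 ± 0.24 (SE), adjusted p = 0.00128, edgeR). The ephrin gene EFNA1 fell to 24.2 ± 5.73 CPM, against 45.2 ± 5.92 CPM (log2 change -0.93 ± 0.20 (SE), adjusted p = 0.00512, edgeR), and the Smad repressor gene SKIL to 33.8 ± 2.56 CPM, against 65.6 ± 3.45 CPM (log2 change -0.99 ± 0.23 (SE), adjusted p = 0.00953, edgeR). These 4 calls held under all 18 other settings. That of SLC6A8 (log2 change -1.46 ± 0.36 (SE), adjusted p = 0.0115, edgeR) was lost without 3 dpa replicate 2 or 10 dpa replicate 3. Those of igfbp6b (log2 change -1.48 ± 0.46 (SE), adjusted p = 0.0369, edgeR) and BSN (log2 change -1.56 ± 0.46 (SE), adjusted p = 0.0281, edgeR) were lost under 7 and 5 of the 18.

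The count of 19 depended on single libraries. It was 9, 5 and 11 without 3 dpa replicates 1, 2 and 3, and 11, 8 and 6 without 10 dpa replicates 1, 2 and 3. It was 10 without all libraries of number 2. Across the 3 comparisons, 104 members were called in none, 25 only as higher at 3 than at 0 dpa, 12 as higher at 3 than at 0 dpa and lower at 10 than at 3 dpa, and 6 only as lower at 10 than at 3 dpa. VWA2, EFNA1, igfbp6b and SLC6A8 belong to the 12. Classes of this kind were not counted over all tested genes, and the rule caps the differences behind them, so they describe the members only.

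**Figure D3:**
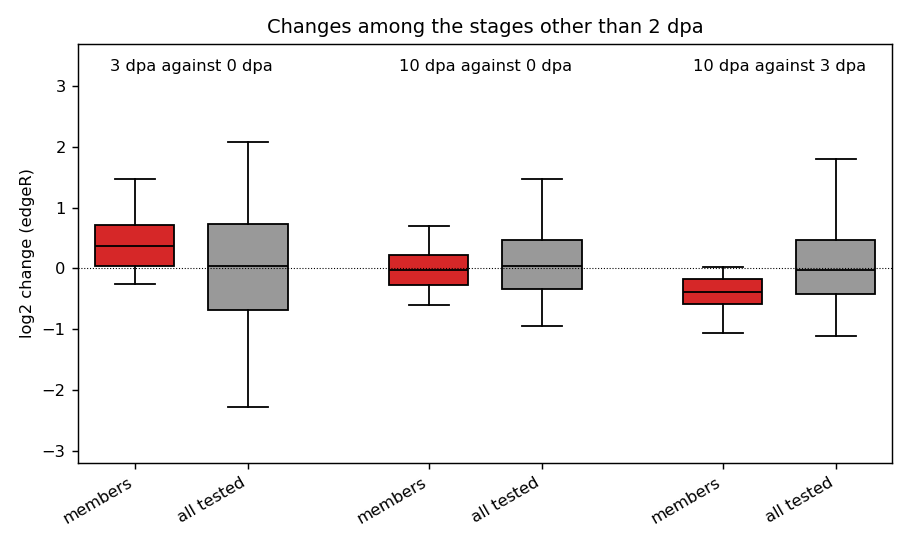
Distribution of edgeR log2 changes over the 150 members and over all 16612 tested genes in the 3 comparisons that leave 2 dpa out. Boxes span the 25th to 75th percentile with the median as a line, and whiskers the 5th to 95th. The members' medians are 0.37, -0.03 and -0.38, against 0.05, 0.04 and -0.02 for all tested genes. Their boxes are narrower, and the rule caps these differences for the members but not for all tested genes.

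The contrasts of 2 dpa with each other stage were used by the rule, so their counts are printed as a description and nothing is read from them. At 2 dpa against 0 dpa, 132 members were called higher, beside 22.9% of all tested genes. At 2 dpa against 10 dpa it was 138, beside 12.2%. At 2 dpa against 3 dpa it was 36, beside 0.494%, or 82 genes in all. That last count moved most, to 2 with the compared groups only, to 12, 67 and 10 without 2 dpa replicates 1, 2 and 3, to 11 and 7 without 3 dpa replicates 1 and 3, to 74 without all libraries of number 2 and to 75 with DESeq2. Of the 46 genes called at 2 dpa against 3 dpa that are not members, 10 were high at 2 and 3 dpa together, 9 were high at 0, 2 and 10 dpa together and 9 met the rule but for the level minimum.

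Libraries that took no part in a choice gave a view of the 2 dpa excess outside the rule. The rule was applied to 8 libraries, without those of 1 replicate number, and the 4 libraries left out were then read. Each choice gave its own 150 genes, which are not the member set. With number 2 left out, 73 of the members were among them. The shares below therefore describe the rule and not the members. The left-out 2 dpa library exceeded the left-out libraries of the other 3 stages for 124 of 150 genes (82.7%) with number 1 left out, for 115 (76.7%) with number 2 and for 133 (88.7%) with number 3. Over all tested genes that share was 30.3, 31.6 and 30.7%. The median ratio in the left-out libraries was 1.4, 1.196 and 1.498, against 1.71, 2.06 and 1.65 in the libraries that chose.

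Which genes the rule picked depended on the libraries and on the scaling. Of the 150 members, 110 were chosen again with TMM library sizes and 118 with DESeq2 size factors. TMM moved the median of all genes by at most 0.096 on the log2 scale, at 2 dpa against 0 dpa. That is a shift between stage means, while a member can fail the rule on a single library. Members not chosen with TMM sizes include adamtsl7, which has the largest ratio, foxi2, emx3, SSR3, WNT7A, skib, SKIL, RAB1B, atf6, BOP1 and tsr1. The genes lost to scaling mostly failed the rule, since 110 of the 150 passed it without the limit on number under TMM and 123 with DESeq2 size factors. Without 2 dpa replicate 1 the count was 85, without 2 dpa replicate 2 it was 89, and without 3 dpa replicate 2 it was 81. In these 3 settings 140, 140 and 149 of the 150 still passed without the limit on number. Without 2 dpa replicate 3, 112 were chosen and 139 passed, and without 3 dpa replicates 1 and 3, 114 and 124 were chosen and 131 passed in each. Chosen in all 18 settings were 33 members, 21 of them among the 36 with a ratio of at least 2. Among the 33 were 11 signalling genes, 7 without a symbol, 3 of matrix and epithelium, 3 of metabolism and transport, 2 of the endoplasmic reticulum and vesicles, 2 without a role and 1 of protein turnover. Nucleolar and RNA genes had 0 among the 33, as did transcription and chromatin genes.

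**Figure D4:**
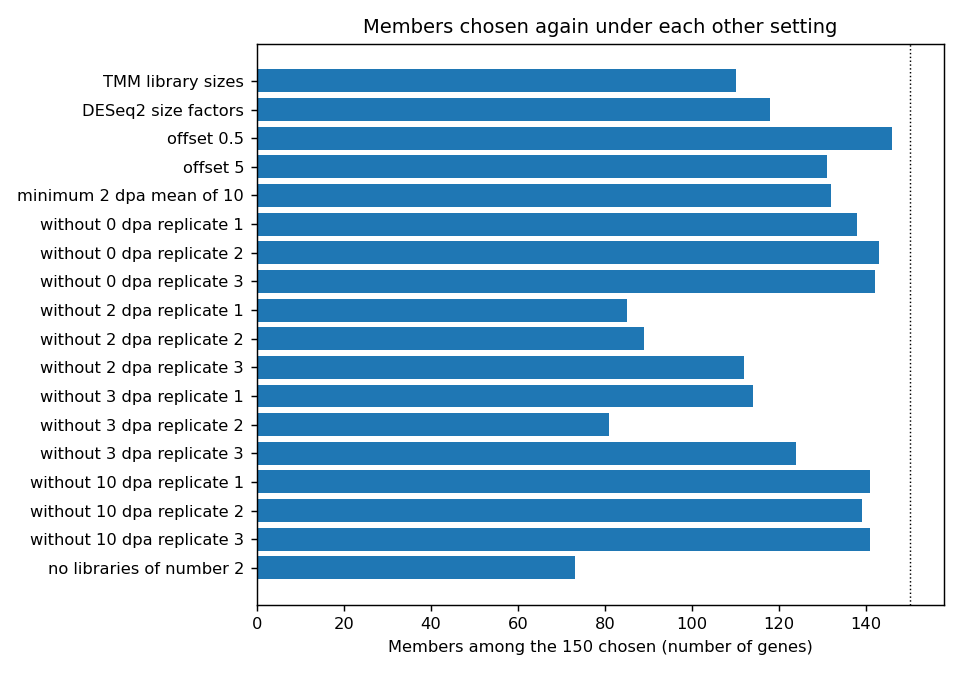
Bars give how many of the 150 members were chosen again when 1 choice of the rule was changed, 1 library was left out or all 4 libraries of number 2 were left out, out of 150 (dotted line). The count was lowest without all libraries of number 2 (73), without 3 dpa replicate 2 (81), and without 2 dpa replicates 1 (85) and 2 (89).

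The position of replicate 2 differed between members and other genes. At 2 dpa, replicate 2 was the lowest of the 3 libraries for 67 members (44.7%), against 27.2% of all tested genes, and the highest for 37 (24.7%), against 50.8%. At 3 dpa, replicate 2 was the highest for 102 members (68.0%), against 50.5%. The rule required a member's lowest 2 dpa library to exceed its highest 3 dpa library but names no replicate number. Its part in this pattern was not tested. The 67 members with replicate 2 lowest at 2 dpa include igfbp6b, EPHA4, lifrb, FAT2 and adamtsl7, and the 37 with replicate 2 highest include IMP4, RAB1B, TGFBR2 and tsr1. In the column headers the 4 libraries of number 2 share the field L02, and those of numbers 1 and 3 share L01 and L03, with no statement of what the field marks. What sets these libraries apart was not tested.

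**Figure D5:**
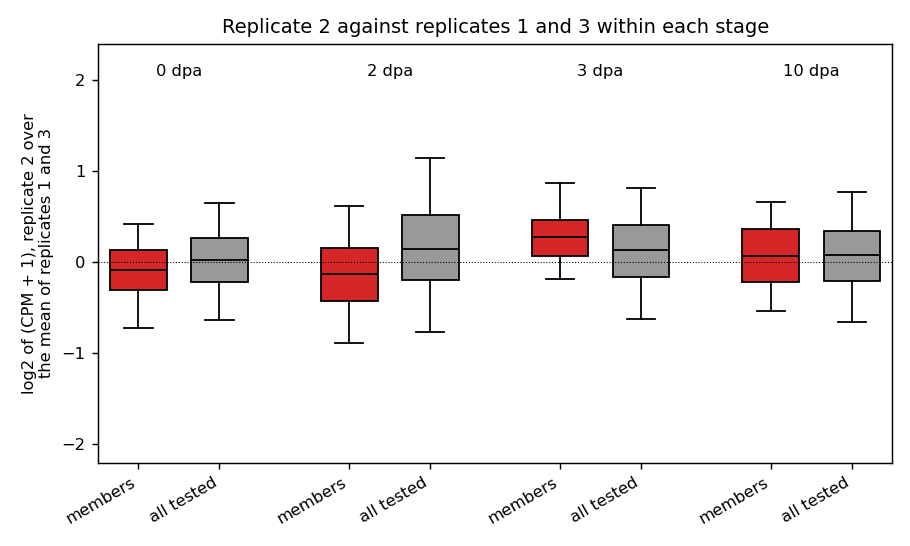
For each stage, log2 of (CPM + 1) of replicate 2 over the mean of replicates 1 and 3 is shown for the members and for all 16612 tested genes. Boxes span the 25th to 75th percentile, and whiskers the 5th to 95th. At 2 dpa the members' median is -0.13, against 0.15 for all tested genes, and at 3 dpa it is 0.28, against 0.13.

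For 39 members the table holds another identifier of the same gene family, with the same symbol or another paralog letter, and these copies were compared after the members' values had been seen. Outside the members, 35 such copies were tested. At 2 dpa against 0 dpa, 13 of them fell (37.1%), beside 24.1% of all tested genes, and 7 rose, beside 22.9%. The other 15 (42.9%) were not called, and at 2 dpa against 3 dpa all 35 were not called. Few genes of any kind were called there, 0.494% of all tested genes as higher and 3.28% as lower, so nothing is read from that. The 13 became 8 without the libraries of number 2. Not among the 35 are RAB1B and rab1bb, each a member and a copy of the other, and both were called higher at 2 dpa against 0 dpa. All tested genes include the members, so their shares and those of the copies are not on equal terms. Reads of near-identical copies may have been split between them in counting, so each pair is uncertain to that extent.

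In several signalling families the copy outside the members fell at 2 dpa, while the member's high level there was required by the rule. In other families, with the copies BMP7, igfbp6a, SKI and RPS6KA3, the copy was not called at 2 dpa against 0 dpa. The second TGFBR2 identifier (ENSDARG00000034541) had 221, 252 and 213 CPM at 0 dpa, 58.5, 40.1 and 47.9 CPM at 2 dpa, 59.1, 60.3 and 59.4 CPM at 3 dpa, and 197, 183 and 189 CPM at 10 dpa. It fell at 2 dpa (log2 change -2.33 ± 0.21 (SE), adjusted p = 2.37e-06, edgeR), while the member had its highest level there. The second WNT7A identifier (ENSDARG00000002483) averaged 21.1 ± 5.64, 6.97 ± 1.58, 5.16 ± 1.42 and 14.9 ± 1.47 CPM at 0, 2, 3 and 10 dpa and also fell at 2 dpa (log2 change -1.73 ± 0.26 (SE), adjusted p = 0.000144, edgeR). The second TMEFF2 identifier (ENSDARG00000058699) averaged 7.73 ± 0.464, 0.294 ± 0.203, 0.729 ± 0.134 and 5.12 ± 0.576 CPM at 0, 2, 3 and 10 dpa, a fall at 2 dpa (log2 change -4.84 ± 0.36 (SE), adjusted p = 8.12e-07, edgeR), and the member 3.05 ± 0.514, 16.99 ± 9.28, 6.53 ± 1.47 and 4.91 ± 1.08 CPM at 0, 2, 3 and 10 dpa. The second EFNA1 identifier (ENSDARG00000030326) averaged 23.5 ± 3.67, 13.1 ± 0.688, 11.7 ± 2.48 and 17.3 ± 1.99 CPM at 0, 2, 3 and 10 dpa and fell at 2 dpa (log2 change -0.95 ± 0.22 (SE), adjusted p = 0.0034, edgeR).

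The same contrast appeared outside signalling, and in some families it did not. The vesicle gene sytl2a, a member, averaged 22.5 ± 2.43, 52.6 ± 7.295, 24.8 ± 6.35 and 25.9 ± 5.28 CPM at 0, 2, 3 and 10 dpa, and its paralog sytl2b (ENSDARG00000075436) averaged 11.7 ± 3.86, 0.479 ± 0.109, 0.8699 ± 0.145 and 5.01 ± 0.7597 CPM at 0, 2, 3 and 10 dpa, a fall at 2 dpa (log2 change -4.71 ± 0.36 (SE), adjusted p = 8.28e-07, edgeR). The phosphatase gene ptp4a3a averaged 45.96 ± 17.3, 111 ± 28.7, 68.3 ± 8.23 and 36.95 ± 1.73 CPM at 0, 2, 3 and 10 dpa, and ptp4a3b (ENSDARG00000054814) averaged 290.3 ± 73.2, 116 ± 43.7, 128 ± 16.7 and 183 ± 19.1 CPM at 0, 2, 3 and 10 dpa, again a fall (log2 change -1.44 ± 0.26 (SE), adjusted p = 0.00057, edgeR). For EPHA4 the 2 other copies differed from each other. The second EPHA4 identifier (ENSDARG00000010767) averaged 2.35 ± 0.696, 10.4 ± 6.11, 10.02 ± 4.28 and 3.77 ± 0.724 CPM at 0, 2, 3 and 10 dpa and rose at 2 dpa (log2 change 1.99 ± 0.41 (SE), adjusted p = 0.00155, edgeR), and epha4b (ENSDARG00000011600) averaged 6.77 ± 1.66, 1.44 ± 0.499, 1.57 ± 0.317 and 9.79 ± 2.17 CPM at 0, 2, 3 and 10 dpa and fell (log2 change -2.33 ± 0.34 (SE), adjusted p = 0.000114, edgeR). The Argonaute gene AGO3 (ENSDARG00000063079), a copy of the member ago3a, averaged 11.4 ± 3.53, 33.7 ± 7.52, 28.1 ± 6.33 and 14.3 ± 5.25 CPM at 0, 2, 3 and 10 dpa and rose at 2 dpa (log2 change 1.42 ± 0.29 (SE), adjusted p = 0.0012, edgeR). The tests printed for copies outside the members passed under all 18 other settings.

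The members were set beside 14 lists of genes for known processes of early regeneration. Of 524 tested genes on these lists 4 were members (0.763%), beside 0.903% of all tested genes, and the count depends on how the lists were written, since the growth factor list names bmp7b and not bmp7a. Of the 4, lifrb stood on the list of gp130 cytokines and STAT3 signalling, igfbp6b on growth factors, atf6 on stress responses and SLC6A8 on solute transport, and the other 10 lists held no member. At 2 dpa against 0 dpa, 30 of 39 tested cell cycle genes rose and 2 fell, yet their median log2 change at 2 dpa against 3 dpa was -0.03. In the list of matrix proteases, inhibitors and hyaluronan genes, 23 of 46 rose at 2 dpa against 0 dpa, and at 2 dpa against 3 dpa 14 fell. In the growth factor list, 16 of 61 rose and 26 fell at 2 dpa against 0 dpa, and at 2 dpa against 3 dpa 2 rose, igfbp6b among them, and 10 fell. In the inflammatory list, 4 of 26 rose and 13 fell, and among AP-1 and immediate early factors 4 of 34 rose and 14 fell, both at 2 dpa against 0 dpa. Over all tested genes the shares were 22.9% higher and 24.1% lower at 2 dpa against 0 dpa, and 0.494% and 3.28% at 2 dpa against 3 dpa.

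The list genes called higher at 2 dpa than at 3 dpa that are not members were 6, and their values show which condition each missed. The growth factor gene FGF20 (ENSDARG00000007356), whose zebrafish copy fgf20a is known to be required for blastema formation, had 2.01, 0.8499 and 0.906 CPM at 0 dpa, 69.5, 27.03 and 57.8 CPM at 2 dpa, 9.83, 20.1 and 11.9 CPM at 3 dpa, and 3.58, 2.48 and 3.11 CPM at 10 dpa. Its 3 dpa libraries lay above all 0 and 10 dpa libraries, and its widest gap lay below 3 dpa (log2 change 1.87 ± 0.38 (SE), adjusted p = 0.0167 for 2 dpa against 3 dpa, edgeR). The coagulation factor gene f5 (ENSDARG00000055705) had 2.98, 0.34 and 0.3396 CPM at 0 dpa, 153, 61.1 and 77.2 CPM at 2 dpa, 22.97, 21.2 and 18.5 CPM at 3 dpa, and 4.36, 1.43 and 3.01 CPM at 10 dpa and the same order of stages (log2 change 2.19 ± 0.55 (SE), adjusted p = 0.0422, edgeR). The laminin gene lamb3 (ENSDARG00000059369) and the keratin gene krt4 (ENSDARG00000017624) overlapped between 2 dpa and 0 dpa, with 237 ± 121, 176 ± 20.3, 57.6 ± 12.4 and 96.6 ± 43.2 CPM at 0, 2, 3 and 10 dpa for lamb3 and 10058 ± 2396, 10838 ± 4452, 3895 ± 1101 and 7467 ± 909.9 CPM at 0, 2, 3 and 10 dpa for krt4. The carbonic anhydrase gene CA6 averaged 110.3 ± 14.6, 47.0 ± 4.15, 25.6 ± 4.46 and 86.1 ± 10.5 CPM at 0, 2, 3 and 10 dpa, highest in the uncut fin, and the enolase gene ENO1 missed the level minimum. Each of these 6 calls was lost under 5 or more of 18 other settings, without 2 dpa replicate 1 and without 2 dpa replicate 3 among them in every case.

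Of 88 tested genes on 15 lists of cell type markers 0 were members, which at the 0.903% of all tested genes is too few genes to read anything from. The summed CPM of a list at 2 dpa lay above all 0 dpa libraries for 2 lists and below them for 9, and overlapped for 4. The sum of the 5 superficial epidermis markers found, of 8 written, lay between 8402 and 13179 CPM at 0 dpa, 7149 and 16022.5 CPM at 2 dpa, 3277 and 5475 CPM at 3 dpa, and 7198 and 9063 CPM at 10 dpa. The sum of 7 of 8 basal epidermis markers lay between 3117 and 4137 CPM at 2 dpa, against 7546 and 9744 CPM at 0 dpa. None of these epidermal markers was at 0 in all 3 libraries of a stage. A sum can rest on a single abundant gene, so it does not show that the markers of a list moved together. The keratin gene krt4 alone reached 9980, 6878 and 15657 CPM in the 2 dpa libraries, close to the superficial epidermis sums there. How far single genes set the other sums was not tested. Counts in brackets below are of names found among those written, and sums ran over the identifiers these names matched. Those were 16 for macrophage, 9 for melanophore, 8 for thrombocyte and 5 for osteoclast markers. Macrophage markers (9 of 12 found) summed to 746 to 1122 CPM at 2 dpa, against 4141 to 5934 CPM at 0 dpa, and endothelial markers (6 of 9) to 24.01 to 61.7 CPM, against 90.8 to 102 CPM. Melanophore markers (7 of 7) summed to 13.97 to 25.4 CPM at 2 dpa, against 255 to 393 CPM at 0 dpa, and glial markers (6 of 6, FOXD3 at 0 at both stages) to 1.88 to 3.01 CPM, against 61.8 to 63.8 CPM. The 2 lists that lay higher were thrombocyte markers (7 of 7), with 117 to 209 CPM at 2 dpa against 55.0 to 97.7 CPM at 0 dpa, and osteoclast markers (6 of 8), with 339 to 590.3 CPM against 254 to 303 CPM. The part of such shifts in the members' levels was not tested.

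In the RefSeq gene order of the assembly GRCz12tu, used for neighbours only, 117 members could be placed, on 25 chromosomes with at most 8 on 1 of them. Only 1 pair had no gene between, dok1a with si:ch211-89o9.6, whose levels averaged 3.13 ± 0.749, 14.3 ± 10.6, 5.67 ± 1.303 and 5.36 ± 0.331 CPM at 0, 2, 3 and 10 dpa.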

How the data were processed

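Caudal fin RNA was measured in 12 libraries, 3 per stage. The authors deposited a table of raw counts by Ensembl gene, in which each column is a library per the file headers, and all columns were used. Libraries were made with Lexogen's SENSE kit and sequenced on a SOLiD instrument, per the labels' protocols. Which aligner, counter, build and strand setting were used is not given in the sources used here. Symbols were looked up in a gene name table.

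CPM are counts over the column total. Tests used edgeR 4.0.16 (R 4.3.3) on counts: TMM, filterByExpr at a count minimum of 10, robust quasi-likelihood F test, all 12 libraries in 1 fit with stage as the only term, Benjamini-Hochberg adjustment over 16612 genes. Checks on simulated data were run first. The SD of a level is the spread of 3 pools, which includes counting error. The SE of a log2 change was derived from the edgeR test, as the absolute change over the square root of F. It rests on the fit to all 12 libraries, with dispersion moderated over genes.

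The members, the gene and marker lists and the tests were chosen with earlier results of these data known. Roles, assigned from general knowledge, and the comparison of paralogs were added after the members' values were seen. List genes were matched by symbol (398), by a capital symbol without the paralog letter (164), or not matched (106). Genes were named by rule: members on a list, the 25 largest ratios with a symbol, those at the edges of the rule, the largest tested changes, the largest share of counts, neighbours, families, list genes outside the members, and members with the widest 2 dpa spread; not all are printed, 1 group of 9 members is not reported here by role, and examples of each role were added after their values were seen.

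Alternatives were RLE normalisation, no filter, a replicate block, the compared groups only, DESeq2 1.42.0, leaving out each library, and leaving out the 4 libraries of number 2. For the rule they were TMM sizes, DESeq2 size factors, offsets of 0.5 and 5 CPM, and a minimum of 10 CPM.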

Additional observations from a re-analysis of the deposited data

How the results depend on the processing

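With 3 pools per stage, members near the edges of the rule and small changes are the least secure, and depth of 8833337 counts in the smallest library limits the members with the lowest levels. Counts of members called moved by over 1.5 times as follows, and the cause was not tested. Higher at 2 than at 3 dpa, 36 became 2 with the compared groups only, 74 without number 2, 75 with DESeq2 and 7 to 67 without single libraries. Higher at 3 than at 0 dpa, 40 became 19 without number 2 and 21 to 42 without single libraries. Lower at 3 than at 0 dpa, 0 became 2 with the compared groups only, 1 without number 2 and 0 to 1 without single libraries. Higher at 10 than at 0 dpa, 3 became 1 with the compared groups only, 1 without number 2 and 0 to 3 without single libraries. Lower at 10 than at 0 dpa, 0 became 1 with the compared groups only, 1 without number 2, 4 with DESeq2 and 0 to 3 without single libraries. Higher at 10 than at 3 dpa, 0 became 0 to 1 without single libraries. Lower at 10 than at 3 dpa, 19 became 10 without number 2 and 5 to 26 without single libraries. Of the 150 members, 73 were chosen again without number 2 and 81 to 143 without single libraries. The held-out share, 82.7% over the 3 replicate numbers, was 88.7% for number 3, and neighbouring member pairs were 4 when up to 2 genes were allowed between. Over the 14 lists, 835 counts under other settings stayed within 1.5 times and 173 did not. Of 35 single-gene tests followed, 21 kept their call in every setting, 14 lost it in at least 1 and 0 reversed in sign. Promoter motifs were not searched, since no promoter sequence was used here.

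The labels do not say what a replicate number marks, and the column headers give each number a field of its own (L01, L02 or L03) without saying what it is. Over 18 pairs of same-numbered libraries, deviations from the mean of the stage correlated at a median of 0.119 (-0.225 to 0.478, 11 over 0.1), over the 36 remaining pairs at -0.0442, and for 9 of 12 libraries the best match had the same number. With the number as a replicate block, members called lower at 10 than at 3 dpa were 29 in place of 19, with 18 shared, those lower at 10 than at 0 dpa 3 in place of 0, those higher at 2 than at 3 dpa 44 and those higher at 3 than at 0 dpa 44.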
